A study of Mus musculus with 4 samples.

Results

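The cells described here are kidney macrophages from a mouse single-cell RNA sequencing time course after an injection of the hormone FGF23. They were selected on measured transcripts. A barcode counted as a macrophage if it held 300 or more genes, at most 50% mitochondrial transcripts, 4 or more unique molecular identifiers (UMIs, each standing for 1 captured RNA molecule) over C1qa, C1qb and C1qc with at least 2 of the 3 genes detected, at most 10 UMIs of the proximal tubule phosphate transporter Slc34a1, and no UMI of the B cell gene Cd79a or the T cell gene Cd3e. Of 52478 deposited barcodes, 41076 met the gene and mitochondrial limits and 173 of these were macrophages. The kidneys came from C57BL/6 mice (C57BL/6J in the protocol) aged 10 weeks, and each library pooled males with females. Mice of the 1 h, 4 h and 12 h libraries had received recombinant human FGF23 once, intraperitoneally, at 10 µg each, and were taken that long afterwards. The control library is labelled 0 h with a dose of 0 µg, but its matrix carries a name that reads saline and 1 h, so the labels do not settle whether the control mice had an injection. Kidneys were digested to single cells, red blood cells were lysed, and dying cells that bind Annexin V were removed before loading on the 10x Genomics 3′ platform. The design text also names 24 h, which was not analysed here. Each time is 1 library, so no difference below has a replicate check or a p-value. All intervals are exact 95% intervals that cover counting error only.

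Macrophages are phagocytes that live in nearly every tissue. In the kidney they lie between tubules and capillaries, clear debris, sample proteins and present peptides to T cells on MHC class II molecules. C1qa, C1qb and C1qc encode the chains of C1q, the recognition molecule of the classical complement pathway, which tissue macrophages make themselves, and Cd74 encodes the invariant chain that guides class II molecules to peptide loading. FGF23 is a bone-derived hormone that lowers phosphate reabsorption and active vitamin D through FGF receptors paired with the co-receptor Klotho, and its best known kidney targets are tubule cells.

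The promoters of 5 genes are printed because the selection or the results below turn on them. C1qb (chr4:136886201-136886450, minus strand) and C1qc (chr4:136892915-136893164, minus strand) belong to the selection rule. Fos (chr12:85473640-85473889, plus strand) and Dusp1 (chr17:26508473-26508722, minus strand) were lowest at 12 h against 0 h among genes of the immediate early list. Cxcl9 (chr5:92328080-92328329, minus strand) was the chemokine with the largest excess at 1 h and 12 h. Each run is the 250 bases before the RefSeq start site in GRCm38.p6, read 5′ to 3′ along the gene. Capitals mark matches, on either strand, of AGGAAGT (the letters bound by PU.1, the myeloid factor encoded by Spi1) in C1qb and C1qc, of TGACGT (the core of the cyclic AMP response element) in Fos and Dusp1, and of GGGANTTCC (an NF-kB site) in Cxcl9.
C1qb: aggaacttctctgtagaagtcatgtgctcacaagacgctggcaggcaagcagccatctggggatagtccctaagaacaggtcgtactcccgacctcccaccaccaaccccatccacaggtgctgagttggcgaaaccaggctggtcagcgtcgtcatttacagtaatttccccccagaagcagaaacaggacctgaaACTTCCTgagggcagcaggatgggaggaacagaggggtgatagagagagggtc
C1qc: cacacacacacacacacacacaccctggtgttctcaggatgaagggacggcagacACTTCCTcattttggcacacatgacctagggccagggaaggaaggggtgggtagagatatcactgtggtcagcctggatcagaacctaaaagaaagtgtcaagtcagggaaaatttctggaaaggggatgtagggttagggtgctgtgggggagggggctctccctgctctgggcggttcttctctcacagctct
Fos: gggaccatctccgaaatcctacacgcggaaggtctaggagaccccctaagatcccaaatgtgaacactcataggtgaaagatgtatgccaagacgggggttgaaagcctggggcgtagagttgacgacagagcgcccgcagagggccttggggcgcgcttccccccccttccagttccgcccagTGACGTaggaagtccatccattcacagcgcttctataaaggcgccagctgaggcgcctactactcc
Dusp1: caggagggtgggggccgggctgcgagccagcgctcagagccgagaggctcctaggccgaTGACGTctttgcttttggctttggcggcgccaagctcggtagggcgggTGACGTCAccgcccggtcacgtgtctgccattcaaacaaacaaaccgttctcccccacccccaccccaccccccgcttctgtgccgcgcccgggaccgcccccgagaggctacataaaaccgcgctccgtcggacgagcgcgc
Cxcl9: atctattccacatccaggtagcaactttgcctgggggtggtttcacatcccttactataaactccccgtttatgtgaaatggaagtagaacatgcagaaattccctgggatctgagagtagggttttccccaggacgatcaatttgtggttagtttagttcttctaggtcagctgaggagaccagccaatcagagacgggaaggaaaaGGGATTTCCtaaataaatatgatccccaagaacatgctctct
Counted from the start site, the match began at -53 in C1qb and at -195 in C1qc, both on the opposite strand. In Fos it began at -66, followed at -60 by an AGGAAGT left in lower case. In Dusp1 TGACGT began at -191 and at -143, with an overlapping opposite-strand match at -141, and in Cxcl9 the NF-kB letters began at -42. Of 32851 mouse promoters of the same length, 7.69% held AGGAAGT, 6.47% TGACGT and 1.43% GGGANTTCC. Of 21 immediate early genes listed for this work, 17 had a promoter in the table, and 6 of the 17 held TGACGT (Atf3, Btg2, Dusp1, Egr2, Fos and Nr4a3), which was chosen with the Fos and Dusp1 sequences in view. Of the other motifs searched, the serum response CArG box was in 2 of the 17, AGGAAGT in 1, TTCNNNGAA (a STAT site) in 1, and TGANTCA (AP-1) and GGGANTTCC in 0. The shares over all promoters were 1.47% for the CArG box, 7.02% for TTCNNNGAA and 6.75% for TGANTCA. The letters were chosen after the sequences had been read, and a match describes the window without showing that a factor binds there.

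The 4 libraries held between 139675666 and 158838728 UMIs over all barcodes, and pairs of libraries shared 36 to 57 barcodes, none of them a macrophage in both. Macrophages contributed 375201, 156616, 17082 and 323363 UMIs at 0, 1, 4 and 12 h. Levels are given as UMIs per 1000000 macrophage UMIs (CPM), so 1 UMI was worth 2.67, 6.39, 58.5 and 3.09 CPM in the same order. The median macrophage held 3517, 4015, 2709.5 and 4828 UMIs at 0, 1, 4 and 12 h, fewer than the median over all barcodes within the limits, which lay between 9422.5 and 11666. At 4 h a gene needed several UMIs from very few cells to register at all, and values there describe those cells.

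Macrophages were most frequent in the control library and least frequent at 4 h. They numbered 85 of 10123 barcodes at 0 h (0.840%, Clopper-Pearson interval 0.671 to 1.04), 31 of 9477 at 1 h (0.327%, 0.222 to 0.464), 6 of 11120 at 4 h (0.0540%, 0.0198 to 0.117) and 51 of 10356 at 12 h (0.492%, 0.367 to 0.647). The intervals of 0 h and 4 h overlapped no other library's, and those of 1 h and 12 h overlapped each other. Fewer macrophages in the tissue, a different yield from digestion and dead-cell removal, and a difference between libraries cannot be told apart with 1 library per time. Neutrophil barcodes, with at least 20 UMIs of S100a8 and S100a9, made up 3.39%, 3.44%, 0.746% and 0.550% at 0, 1, 4 and 12 h, and endothelial barcodes 4.35%, 4.64%, 6.26% and 7.73%. The macrophage share was thus lower at 1 h while the neutrophil share was not, and was higher at 12 h than at 4 h while the neutrophil share was not.

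**Figure D1:**
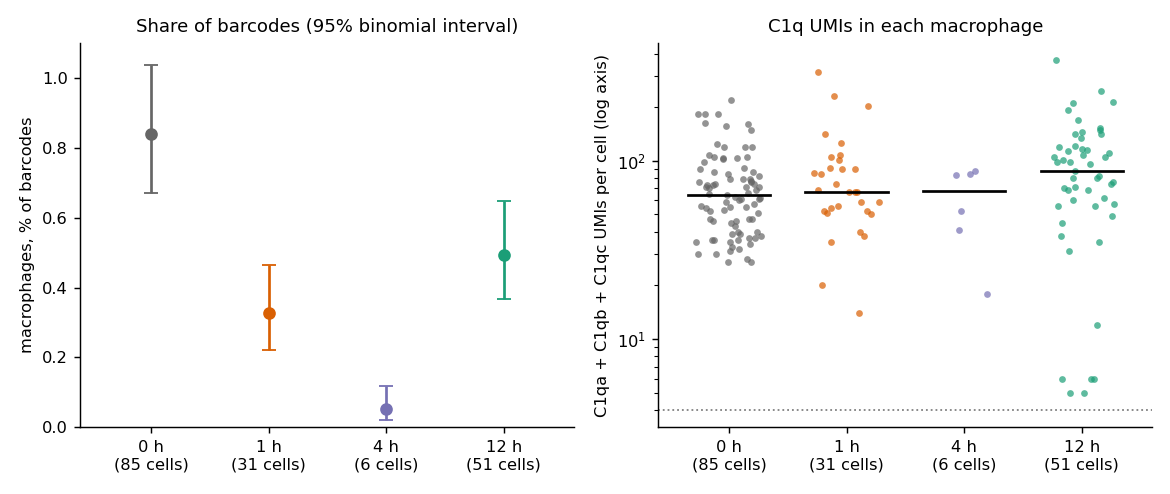
Left, macrophages as a percentage of barcodes within the gene and mitochondrial limits in each library, with exact 95% intervals. Right, summed C1qa, C1qb and C1qc UMIs per macrophage on a log axis, each point a cell, the bar the median and the dotted line the minimum of 4. The share is lowest at 4 h (0.0540%), while the medians lie between 64 and 88 UMIs, far above the dotted line in all 4 libraries.

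The C1q values that chose the cells lay far from the minimum in most of them. Median summed C1q was 64, 67, 67.5 and 88 UMIs at 0, 1, 4 and 12 h, and the lowest member held 27, 14, 18 and 5. All 3 chains were detected in 85 of 85, 30 of 31, 6 of 6 and 47 of 51 macrophages. Just outside the rule, 4, 1, 4 and 1 barcodes held 2 or 3 C1q UMIs, and just inside it, 5 members held 4 to 7, all at 12 h. Barcodes with 4 or more C1q UMIs that the other limits kept out were those with too many mitochondrial transcripts (5, 1, 1 and 3), with more than 10 Slc34a1 UMIs (10, 3, 2 and 5) and with a B or T cell gene (0, 0, 0 and 2).

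Genes outside the rule matched the label in most members. The 13 macrophage markers that the rule did not use summed to 68070, 70350, 81370 and 56170 CPM at 0, 1, 4 and 12 h, against 944 to 1095 CPM in all other barcodes of the same libraries. Cd74 was detected in all 173 cells and made up most of each sum. It was also high in 12 h members with Xcr1 but no Csf1r, described below (121, 246 and 488 UMIs), so it does not mark macrophages alone. With every cell thinned to 1000 UMIs, Lyz2, the lysozyme of myeloid cells, was detected in 70.6%, 71.0%, 66.7% and 62.0% of macrophages at 0, 1, 4 and 12 h, against 0.192% to 0.565% of proximal tubule barcodes. Csf1r, the receptor for the growth factor on which macrophages depend, was detected in 43.5%, 61.3%, 66.7% and 32.0% of thinned cells, and Adgre1, which encodes the F4/80 antigen, in 37.7%, 25.8%, 50% and 28%. Without thinning Csf1r was in 90.6%, 87.1%, 83.3% and 78.4% of macrophages, at median depths of 2709.5 to 4828 UMIs, and in 4.50% to 6.87% of proximal tubule barcodes, at median depths of 12900 to 14630. Unthinned Lyz2 was in 89.4%, 87.1%, 66.7% and 86.3% of macrophages and Adgre1 in 72.9%, 61.3%, 66.7% and 66.7%, and thinning left out 1 shallow cell, at 12 h.

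Beside the C1q genes of the rule, the genes with the largest ratio of macrophages to all other barcodes at 0 h were largely surface receptors and chemokines. They were Retnla, Ms4a7, Pf4, Lilra5, Ccl12, Mgl2, Slamf9, Cx3cr1, Adgre1, Scimp, Cd72, Ccl4, P2ry6, Aif1, Fcgr4, Lair1 and H2-Eb1. Ms4a7, a tetraspan membrane protein of macrophages, stood at 591.7 CPM in them and 0.158 CPM in the rest. H2-Eb1, the class II beta chain, stood at 15640 against 73.1 CPM. Apart from Retnla, which no macrophage of a treated library contained, each of these genes was also higher in macrophages than in other barcodes at 1, 4 and 12 h.

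Markers of neutrophils, T and NK cells, podocytes and tubule segments summed to less than in other barcodes, although Kap was found in many members. B cell, monocyte and dendritic cell markers, and endothelial markers at 12 h, summed to more than in other barcodes. Neutrophil markers outside the rule summed to 72.0, 12.8, 0 and 21.7 CPM at 0, 1, 4 and 12 h, with Retnlg and Mmp8 at 0 in every library, against 134 to 1146 CPM in other barcodes. T and NK cell markers summed to 0, 6.39, 0 and 3.09 CPM, and podocyte markers to 0, 6.39, 0 and 3.09. The B cell gene Pax5 was at 0, while Ighm and Cd79b kept the B cell sum at 293 to 377 CPM. That sum was 17.8 to 66.9 CPM in other barcodes. Monocyte markers summed to 469, 1066, 527 and 244 CPM, against 73.3 to 98.9 in other barcodes. Dendritic cell markers summed to 520, 524, 820 and 813 CPM, against 31.5 to 44.1 in other barcodes. Proximal tubule markers summed to 1138, 524, 468 and 782 CPM against 33670 to 47190 in other barcodes. Thick ascending limb markers summed to 541, 51.1, 117 and 340 CPM, distal tubule markers to 413, 25.5, 0 and 603, and endothelial markers to 5.33, 6.39, 58.5 and 365. In other barcodes the thick limb sum was 1099 to 1298 CPM and the distal sum 1497 to 2156. The endothelial sum there was 158 to 316 CPM, with 316 at 12 h. Members with 20 or more tubule or endothelial marker UMIs numbered 3 of 85 at 0 h, 0 of 31 at 1 h, 0 of 6 at 4 h and 9 of 51 at 12 h, so the 12 h macrophages held the most such cells. These 12 members held 239 of the 257 Umod and 213 of the 218 Slc12a3 UMIs of all macrophages. The doublet caller Scrublet, run for comparison only, marked 2 of 85, 0 of 31, 0 of 6 and 11 of 51 macrophages. Over all barcodes within the limits it marked 7.68%, 7.31%, 8.59% and 7.90% at 0, 1, 4 and 12 h. Marked cells were thus a larger part of the macrophages than of all barcodes at 12 h, and a smaller part at 0 h. Kap, an abundant male proximal tubule transcript, had at least 1 UMI in 82 of 85, 27 of 31, 3 of 6 and 44 of 51 macrophages, and 84 of its 352 UMIs at 0 h lay in members with 20 or more tubule or endothelial marker UMIs. After thinning it was found in 63.5%, 32.3%, 16.7% and 32.0% of macrophages against 56.3% to 68.9% of proximal tubule barcodes, while Lrp2, which encodes the tubule receptor megalin, was in 0%, 0%, 0% and 4.00% against 62.2% to 65.8%. The part of these transcripts in the results was not tested beyond the values given with such members left out.

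**Figure D2:**
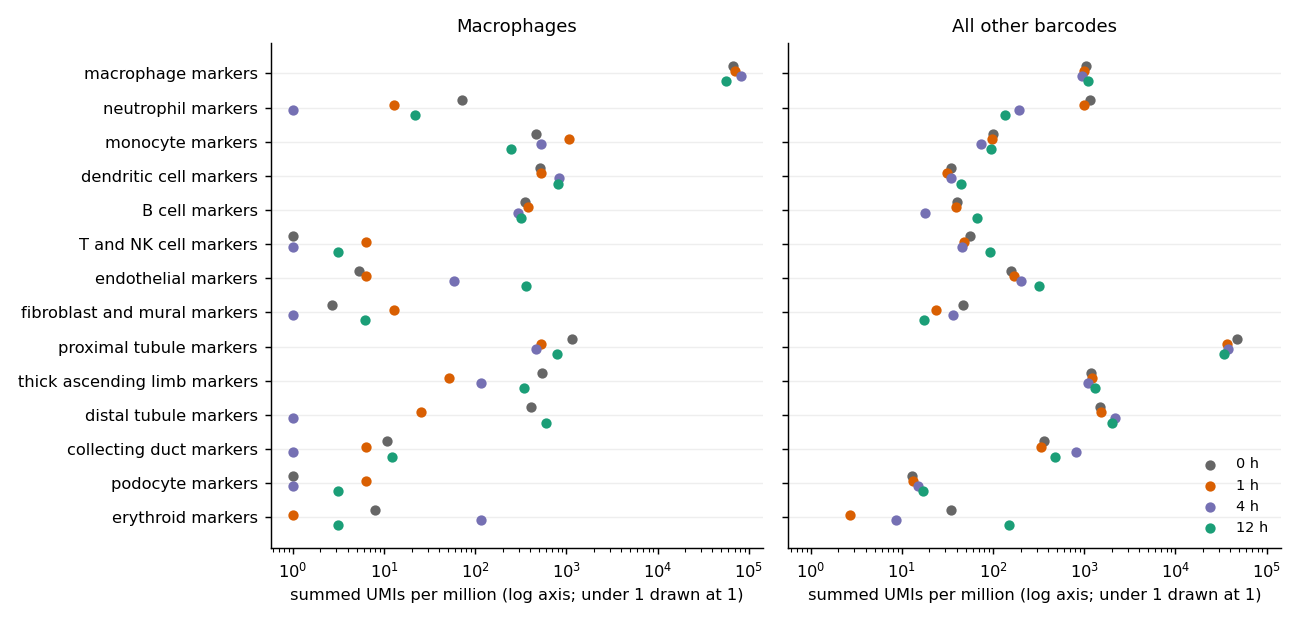
Summed CPM of the genes of 14 marker lists (genes of the selection rule left out) in macrophages and in all other barcodes of each library, on a log axis with sums under 1 drawn at 1. Macrophage markers sum to 56170 to 81370 CPM in macrophages and 944 to 1095 CPM elsewhere, and the endothelial sum in macrophages is highest at 12 h (365 CPM).

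The members were not uniform, and the cells nearest the C1q minimum differed most. Of the 5 members with 5 or 6 C1q UMIs, all at 12 h, none held a UMI of Csf1r. In 3 of the 5, Xcr1, the chemokine receptor of type 1 conventional dendritic cells, was present at 1, 6 and 5 UMIs, together with 1, 1 and 2 UMIs of the dendritic cell growth factor receptor gene Flt3. These 3 also held 15, 29 and 2 UMIs of Irf8 and 1, 4 and 3 of Batf3, both transcription factors of that dendritic lineage. At 1 h the member with the fewest C1q UMIs (14) held 56 of the library's 66 macrophage UMIs of Plac8, 10 of 24 UMIs of the inflammatory monocyte gene Ly6c2, 82 UMIs of Cxcl9 and 20 of 40 UMIs of Irf7. A member at 12 h with 12 C1q UMIs held 125 UMIs of the distal tubule transporter Slc12a3 and 79 of Umod, the thick ascending limb gene, and was marked by Scrublet. That member held 20479 of the 323363 macrophage UMIs at 12 h, and the largest members with 5 or 6 C1q UMIs held 12288 and 11010. These few cells match the label less well than the others. The effect of leaving out those with tubule or endothelial markers is given beside some of the results.

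Resident, scavenging and monocyte-related genes were spread unevenly over the cells. The resident macrophage receptor Cx3cr1 was measured at 466, 326, 410 and 421 CPM at 0, 1, 4 and 12 h. Ccr2, the receptor by which monocytes leave the blood, had 130, 74, 9 and 52 UMIs in 25, 9, 3 and 14 cells. Mrc1, the mannose receptor, had 60 UMIs in 33 cells at 0 h, 12 in 7 at 1 h, 4 in 1 at 4 h and 24 in 15 at 12 h. Cx3cr1 and Ccr2 were thus both present in every library. The monocyte genes Chil3 and Vcan and the dendritic cell gene Cd209a were at 0 throughout, and Ly6c2 was found at 1 h only, in 2 cells. One macrophage at 0 h, with 7763 UMIs and 219 C1q UMIs, stood apart. It alone held the library's 249 UMIs of Retnla (chr16:48842551-48844461, plus strand), a secreted product of alternatively activated macrophages, its 43 UMIs of the folate receptor gene Folr2, 20 of Cd209f, 14 of Fcna and 10 of Ccl24. That cell also carried 22 of 24 UMIs of Ccl8 and 13 of 16 of F13a1. No macrophage at 1, 4 or 12 h held Retnla or Folr2, so the lower Retnla in the treated libraries (at least 34.7-fold at 1 h, 3.78-fold at 4 h and 71.5-fold at 12 h, with a floor of 3 counts per library) rests on 1 cell.

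Few UMIs of the FGF23 receptor complex were counted in these cells. Over all 173 macrophages and 872262 UMIs, no UMI of Fgfr2, Fgfr3, Fgfr4, Fgfrl1 or Klb was counted. Fgfr1, the main partner of Klotho, had 4 UMIs in 3 cells. Kl, which encodes Klotho, had 26 UMIs in 9 cells, and 20 of the 26 lay in 4 of the 12 members with 20 or more tubule or endothelial marker UMIs. Frs2, the adaptor that links FGF receptors to downstream signalling, had 12 UMIs in 11 cells, or 13.8 CPM, beside 9.99 to 11.1 CPM in all other barcodes, and the vitamin D receptor gene Vdr 18 UMIs in 11 cells. A count of 0 in this total allows a level of up to 3.44 CPM, so lower expression was not detectable. In all other barcodes Kl was at 170.1 to 257.1 CPM, Fgfr1 at 13.01 to 14.1, Fgfr3 at 14.7 to 17.4 and Fgfr4 at 10.4 to 13.1, while Fgfr2, at 3.11 to 4.78, was near that limit and Klb was at 0 there too.

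At 1 h against 0 h, the pooled macrophages carried more Cxcl9 and more of the inducible heat shock transcripts and less of the chemokines Ccl3 and Ccl4. Among 1320 genes with at least 50 UMIs over both libraries, 37 (2.80%) were 2-fold or more higher at 1 h and 36 (2.73%) were as much lower. The median log2 ratio over these genes was 0.09. With the cell holding the most UMIs of each gene left out of each library, 18 genes were higher and 59 lower. All 3 times are compared with the same 0 h library.

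Cxcl9 (chr5:92321347-92328079, minus strand), a chemokine that interferon gamma induces and that draws T cells, stood furthest above 0 h of the genes found in several cells. It had 29 UMIs in 4 cells at 0 h, 240 in 7 cells at 1 h, 0 at 4 h and 250 in 12 cells at 12 h, or 77.3, 1532, 0 and 773 CPM. Against 0 h the log2 ratio at 1 h was 4.29 (3.75 to 4.92), and at 12 h it was 3.30 (2.76 to 3.93), against 0.22 and 1.36 in all other barcodes. Most UMIs sat in few cells: the highest cell held 26 of 29 at 0 h, 111 of 240 at 1 h and 87 of 250 at 12 h, and 1, 3, 0 and 5 cells held 10 or more. The 12 h cell with 87 was female-called and marked by Scrublet. Female-called 12 h members with 6 C1q UMIs and no Csf1r held a further 31 and 8. The 12 h value without these cells is not given. At 1 h the cells with 111 and 82 Cxcl9 UMIs were also the only members of that library with Ly6c2 (14 and 10 UMIs) or Plac8 (10 and 56), and the 3 monocyte markers measured at 1 h were all higher than at 0 h, with a median of 2.89; their part in the Cxcl9 value was not tested. Cells were also called female (Xist and no Y-linked transcript) or male (the reverse). Female-called cells held 0 Cxcl9 UMIs at 0 h, 46 at 1 h and 143 at 12 h (at least 24.6-fold and 37.6-fold higher, with a floor of 3 counts). Male-called cells held 29 at 0 h and none later (at least 1.41-fold lower at 1 h and 4.78-fold at 12 h). Uncalled cells held 194 at 1 h and 107 at 12 h. The higher values were therefore found in female-called and uncalled cells, with 5 male-called cells at 1 h and 11 at 12 h.

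Other genes higher at 1 h were often concentrated in few cells. Lyz1 had 102 UMIs, all in 1 cell of 12563 UMIs, and none at 0 h (at least 81.5-fold higher); it is nearly identical to Lyz2, of which the same cell held 283 UMIs, so the split between them is uncertain. Psmb10, an immunoproteasome subunit, had 59 UMIs in 39 cells at 0 h and 59 in 15 cells at 1 h, 20 of them in 1 cell (log2 1.26, 0.71 to 1.81). S100a6, a calcium-binding protein, had 47 UMIs in 13 cells at 0 h and 53 in 6 cells at 1 h (1.43, 0.84 to 2.03), and was also higher in other barcodes (1.14). The 1 h cells with Ly6c2 held 21 and 10 of the 53. Irf7, the interferon regulatory factor, was at 1.53 (0.84 to 2.25), with 20 of its 40 UMIs at 1 h in 1 of the cells with Ly6c2. Gbp2, an interferon-induced GTPase, was at 2.10 (1.19 to 3.1). Of the 16 interferon response genes measured (20 or more UMIs over both libraries), 11 were higher and the list median was 0.13, beside 0.08 over all genes with as many UMIs; in female-called cells it was -0.82. Ifi27l2a, the interferon gene with the most UMIs at 0 h, was lower, at 1335 CPM at 0 h and 517 at 1 h (-1.36, -1.73 to -1.03).

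Heat shock genes, the chaperones of misfolded proteins, had the highest list median at 1 h among lists with at least 4 genes measured. The chaperone gene Hspa1a had 107 UMIs in 21 of 85 cells at 0 h, 110 in 10 of 31 at 1 h, 2 in 2 of 6 at 4 h and 57 in 18 of 51 at 12 h. Its log2 ratio was 1.30 (0.90 to 1.70) at 1 h and 0.76 in other barcodes, and its near-identical copy Hspa1b gave 1.14 (0.67 to 1.60). Of 9 heat shock genes measured at 1 h, 7 were higher, with a median of 0.52. The constitutive chaperone gene Hspa8 was at -0.01 (-0.24 to 0.20), so the difference was largest for the inducible members. Female-called cells held 101 of the 110 Hspa1a UMIs at 1 h and male-called cells 3. From 0 h to 1 h, Hspa1a went from 370 to 1394 CPM in female-called cells, from 172 to 154 in male-called cells and from 327 to 92.7 in uncalled cells. Hspa1b went from 387 to 966, from 135 to 257 and from 176 to 46.4 CPM in the same order. The higher Hspa1a at 1 h was therefore found in female-called cells only. Without members holding an Slc34a1 UMI, the Hspa1a ratio at 1 h was 0.28.

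Ccl4 and Ccl3, chemokines that attract T cells and monocytes, were lower at 1 h in the pooled macrophages, and the difference lay in the cells with the most UMIs. Ccl4 (chr11:83662584-83664683, plus strand) had 398 UMIs in 41 of 85 cells at 0 h, 32 in 9 of 31 at 1 h, 40 in 4 of 6 at 4 h and 246 in 25 of 51 at 12 h, or 1061, 204, 2342 and 761 CPM. The log2 ratios were -2.36 (-2.94 to -1.85), 1.16 (0.64 to 1.61) and -0.48 (-0.71 to -0.25) at 1, 4 and 12 h. Cells with 10 or more Ccl4 UMIs numbered 10, 0, 2 and 4, so the highest cells of 0 h had no counterpart at 1 h. The typical cell differed little: Ccl3 and Ccl4 together made up a median of 0.0209% of a cell's UMIs at 0 h and 0.0190% at 1 h, and 38 of 85 and 14 of 31 cells held neither. Ccl3 had 208 UMIs in 32 cells, 20 in 10, 0 and 111 in 15, with log2 ratios of -2.09 (-2.86 to -1.45) at 1 h and -0.69 (-1.04 to -0.35) at 12 h, and was at least 3.16-fold lower at 4 h. In female-called cells Ccl4 had 110 UMIs at 0 h and 16 at 1 h, and in male-called cells 175 and 8, so it was lower at 1 h in both. At 12 h the calls differed in direction. Ccl4 went from 946 CPM at 0 h to 414 at 12 h in female-called cells, and from 1309 to 2616 in male-called cells. Male-called cells with 82 and 63 UMIs held most of the latter. Ccl3 went from 422 to 224 CPM in female-called and from 524 to 953 in male-called cells. Of 13 cytokine and chemokine genes measured at 1 h, 4 were higher and the median was -0.42. Il1b, the inflammatory cytokine interleukin 1 beta, was at 320, 236, 351 and 368 CPM in the pooled macrophages at 0, 1, 4 and 12 h. In all other barcodes it was lower at 12 h than at 0 h (-2.15). By call, Il1b went from 396 CPM at 0 h to 1164 at 12 h in male-called macrophages. It went from 318 to 190 in female-called and from 240 to 128 in uncalled macrophages. The highest cell held 51 of the 119 macrophage Il1b UMIs at 12 h.

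**Figure D3:**
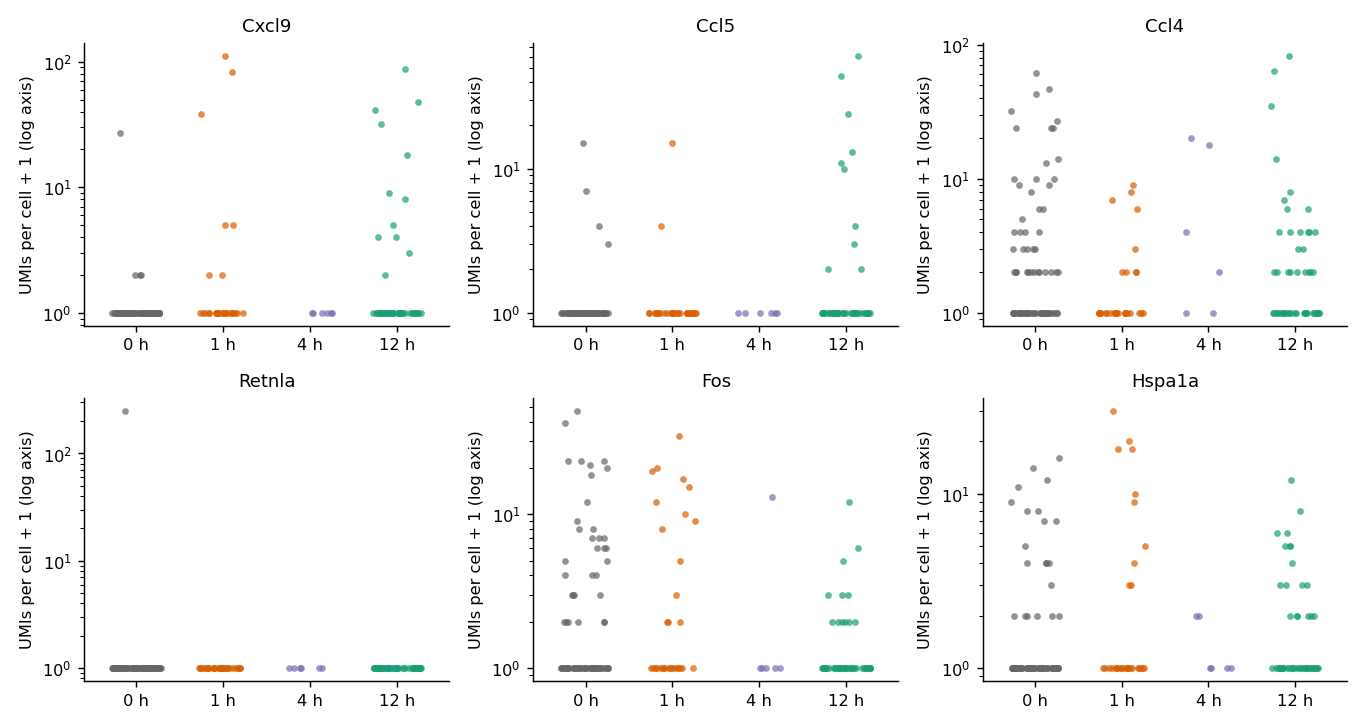
UMIs per cell plus 1, on a log axis, of Cxcl9, Ccl5, Ccl4, Retnla, Fos and Hspa1a in every macrophage of the 4 libraries, each point a cell. Retnla lies in 1 cell at 0 h, Cxcl9 in 4, 7, 0 and 12 cells, and the Ccl4 cells with 10 or more UMIs number 10, 0, 2 and 4.

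Other genes lower at 1 h included Tuba1b and members of the lipid handling and resident macrophage lists. Tuba1b, an alpha tubulin, had 123 UMIs in 31 cells at 0 h and 16 in 9 at 1 h (-1.64, -2.53 to -0.93), whereas the filament gene Vim was higher at 1 h (1.00, 0.59 to 1.4). Apoe, the lipoprotein that macrophages secrete, stood at 9291 CPM in 76 of 85 cells at 0 h, 4859 in 24 of 31 at 1 h, 10480 in 5 of 6 at 4 h and 6318 in 44 of 51 at 12 h, with a log2 ratio of -0.93 (-1.05 to -0.82) at 1 h. It was higher in other barcodes at 1 h (0.34). Of 10 lipid handling genes measured at 1 h, 1 was higher and the median was -0.59. Ms4a7 was lower at 1 h as well (-1.16, -1.69 to -0.69), as was the actin-linked kinase substrate gene Marcks (-1.22, -1.78 to -0.72). Of 13 resident macrophage genes measured, 3 were higher, with a median of -0.40, but in male-called cells alone the median was 0.81. Csf1r itself was at 578, 619, 703 and 384 CPM at 0, 1, 4 and 12 h, and Spi1, the gene of PU.1, at 528, 568, 410 and 473, so neither was lower at 1 h.

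Egr1, an immediate early transcription factor that FGF signalling through ERK is known to raise, stood on opposite sides of its 0 h level in macrophages and in the rest of the kidney at 1 h. Macrophages held 109 UMIs in 25 of 85 cells at 0 h, 14 in 5 of 31 at 1 h, 2 in 2 of 6 at 4 h and 23 in 10 of 51 at 12 h, a log2 ratio of -1.66 (-2.62 to -0.89) at 1 h. All other barcodes were at 46.5 CPM at 0 h and 226 at 1 h, a ratio of 2.28, and proximal tubule barcodes were at 3.01. Female-called cells held 9 UMIs at 0 h and 13 at 1 h (ratio 1.19), male-called cells 54 and 1, and uncalled cells 46 and 0. The female-called levels had overlapping intervals, 35.4 to 147 CPM at 0 h and 95.5 to 307 at 1 h. Male-called cells numbered 5 at 1 h and uncalled cells 11. Over 15 immediate early genes measured at 1 h, 5 were higher in macrophages and the median was -0.10, and in female-called cells alone the list median was 0.85.

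At 12 h the immediate early genes, which cells transcribe within minutes of a stimulus, were lower than at 0 h, with a median further below 0 than that of any other gene list but cell cycle, marker lists of cell types left aside. Among 1716 genes with at least 50 UMIs over both libraries, 47 (2.74%) were 2-fold or more higher at 12 h and 52 (3.03%) lower, and the median gene was at 0.03. None of the 15 immediate early genes measured was higher, 7 were 2-fold or more lower, and the list median was -0.98, against -1.08 in all other barcodes. Fos, which pairs with Jun in the AP-1 transcription factor, had 300 UMIs in 33 of 85 cells at 0 h, 142 in 14 of 31 at 1 h, 12 in 1 of 6 at 4 h and 32 in 12 of 51 at 12 h. In CPM it was at 800, 907, 703 and 99.0, and its log2 ratio at 12 h was -2.99 (-3.59 to -2.49). Dusp1, a phosphatase that switches off MAP kinases, had 197, 73, 5 and 37 UMIs (525, 466, 293 and 114 CPM), a ratio of -2.18 (-2.75 to -1.69) at 12 h. The pooled levels at 0 h and 1 h were thus alike for both genes and the pooled 12 h level stood below them. By call, Fos went from 843 CPM at 0 h to 1435 at 1 h in female-called cells. It went from 1017 to 1389 in male-called and from 527 to 170 in uncalled cells. Dusp1 went from 353 to 635, from 636 to 875 and from 567 to 155 CPM in the same order.

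The remaining genes of the immediate early list differed less at 12 h. Egr1 was at -2.01 (-2.75 to -1.37) and Ier2, another rapidly induced nuclear protein, at -1.45 (-2.0 to -0.95). Jun, the AP-1 partner of Fos, was at -1.38 (-1.70 to -1.07), and the antiproliferative gene Btg2 at -1.02 (-1.33 to -0.72). Zfp36, which speeds the decay of cytokine mRNAs, was at -0.97 (-1.44 to -0.54), Junb at -0.67 (-0.99 to -0.36), Jund at -0.62 (-0.92 to -0.33) and Ier5 at -0.25 (-0.61 to 0.10). Fos and Dusp1, whose promoters are printed above, thus had the lowest ratios of the genes named here from the immediate early list. Ier3, given below with the NF-kB targets, was not on that list.

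The lower level at 12 h lay in the upper part of the distribution over cells. Immediate early UMIs made up a median of 0.297%, 0.332%, 0.297% and 0.246% of a cell's UMIs at 0, 1, 4 and 12 h. The upper quartile was 0.930%, 0.926%, 0.381% and 0.353%, and the pooled share 0.678%, 0.657%, 0.562% and 0.308%. The typical cell thus differed little while the upper quartile at 12 h was less than that at 0 h and 1 h. The pooled share had the same direction in cells called female (0.503% at 0 h and 0.318% at 12 h) and male (0.773% and 0.426%). The median per cell did not: it was 0.208% at 0 h and 0.245% at 12 h in female-called cells. In male-called cells it was 0.507% and 0.223%. Without members holding 20 or more tubule or endothelial UMIs the list median at 12 h was -0.82. Among members with no Slc34a1 UMI, 65 at 0 h and 34 at 12 h, it was -0.26, with Fos at -1.86 and Dusp1 at -1.36, so the difference was smaller among members without this proximal tubule transcript.

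Fos at 12 h was lower by a like amount in endothelial barcodes (-2.39) and proximal tubule barcodes (-2.49), but was at 0.04 in neutrophil barcodes. Dusp1 was at -0.98 in endothelial, -2.25 in proximal tubule and -0.20 in neutrophil barcodes, and Egr1 and Ier2 were at 0.06 and 0.43 in neutrophils. The lower level of these genes at 12 h was therefore shared with resident kidney cells of the same libraries, and neutrophil barcodes, 343 at 0 h and 57 at 12 h, did not show it.

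**Figure D4:**
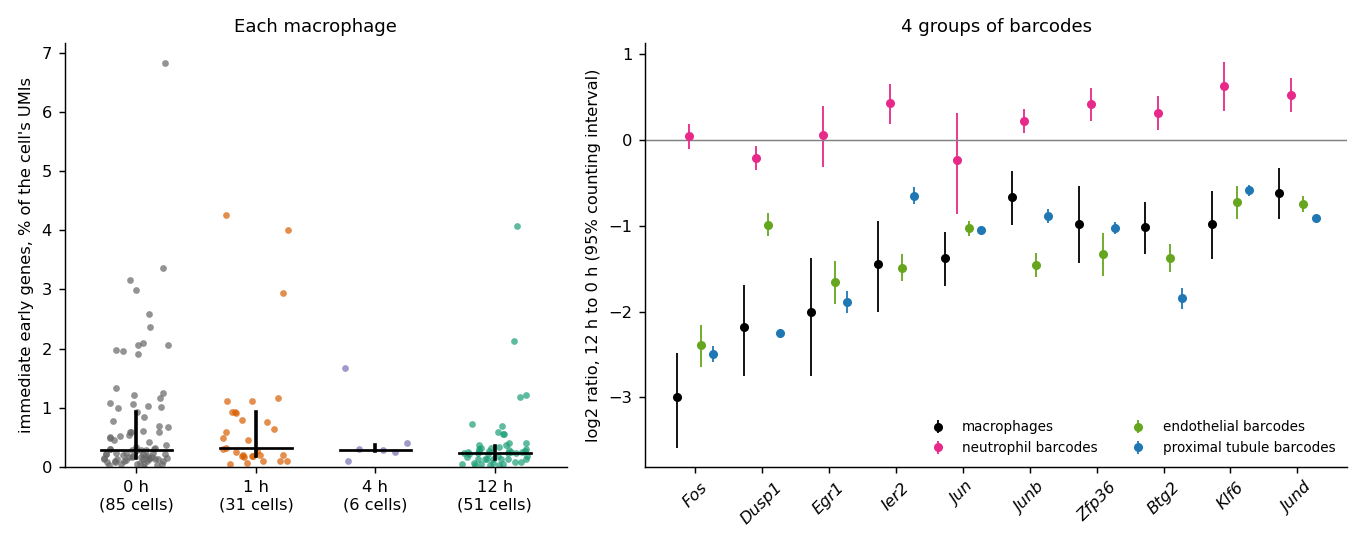
Left, immediate early UMIs as a percentage of each macrophage's UMIs in the 4 libraries, with the median and quartiles. Right, log2 ratio of 12 h to 0 h for 10 immediate early genes in macrophages and in neutrophil, endothelial and proximal tubule barcodes, with exact 95% counting intervals. Fos is at -2.99 in macrophages, -2.39 in endothelial, -2.49 in proximal tubule and 0.04 in neutrophil barcodes.

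Ccl5, Dnase1l3, Zmynd15 and Ctsd were also higher at 12 h in the pooled macrophages. Ccl5, a chemokine for T cells and monocytes, had 25 UMIs in 4 cells at 0 h, 17 in 2 at 1 h, 0 at 4 h and 164 in 10 cells at 12 h, 60 of them in 1 cell. Its CPM went from 66.6 at 0 h to 507 at 12 h, a log2 ratio of 2.90 (2.31 to 3.6), against 0.97 in other barcodes. Dnase1l3, a secreted nuclease that digests DNA in cell debris, had 21 UMIs in 12 cells at 0 h and 116 in 17 cells at 12 h (2.65, 2.0 to 3.43), and was also higher at 1 h (1.81, 0.98 to 2.69). Of the members with 5 or 6 C1q UMIs at 12 h, 2 held 19 and 16 of these Dnase1l3 UMIs and 9 and 23 of the Ccl5 UMIs. The 4 dendritic cell markers measured at 12 h were all higher than at 0 h, with a median of 0.61, and their part in these genes was not tested. Zmynd15, a zinc finger transcriptional regulator, had 35 UMIs in 23 cells and 95 in 21 cells (1.64, 1.08 to 2.26). Ctsd, the lysosomal protease cathepsin D, had 55 UMIs in 28 cells at 0 h and 138 in 20 at 12 h (1.53, 1.08 to 2.02), but 84 of the 138 were in the 12 h member that carried Slc12a3 and Umod. Without members holding 20 or more tubule or endothelial marker UMIs the Ctsd ratio was 0.00. Spp1, which encodes osteopontin, had 59, 2, 1 and 281 UMIs, of which 163 at 12 h were in 1 cell. That cell was marked by Scrublet and held all 42 UMIs of Fst, 41 of 46 of Cryab and 22 of 29 of Aqp1. A further 77 Spp1 UMIs were in the 12 h member that carried Slc12a3 and Umod. At 0 h, 27 of the 59 were in a Scrublet-marked member with 135 tubule marker UMIs. Most of the Spp1 at 12 h therefore cannot be assigned to macrophages.

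NF-kB target genes stood slightly above 0 h at 12 h. Of 16 measured, 11 were higher and the median was 0.38. The survival genes Bcl2a1b and Bcl2a1d, near-identical copies between which reads can be split, were at 1.1 (0.72 to 1.5) and 1.58 (0.75 to 2.54), and the adaptor gene Traf1 at 1.35 (0.51 to 2.29). Ier3, a stress-response target, was lower (-2.48, -4.30 to -1.24). The cytokine and chemokine list, with 8 of 15 higher, had a median of 0.00 at 12 h, with -0.91 in female-called cells alone and 0.59 in male-called cells alone.

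Antigen presentation genes were slightly lower at 12 h in the pooled macrophages. Cd74 was at 44210, 49300, 54380 and 37680 CPM at 0, 1, 4 and 12 h, with a log2 ratio of -0.23 (-0.26 to -0.20) at 12 h. H2-Aa was at -0.38 (-0.44 to -0.32), H2-Ab1 at -0.36 (-0.41 to -0.30) and H2-Eb1 at -0.34 (-0.40 to -0.28), and the class II transactivator gene Ciita at -0.97 (-1.48 to -0.48). Of 11 genes measured, 2 were higher at 12 h, with a list median of -0.32, against 7 of 11 and 0.05 at 1 h. Per cell, Cd74 and the 3 class II genes took a median of 10.2%, 11.3%, 12.2% and 9.66% of UMIs. Without members holding 20 or more tubule or endothelial marker UMIs, the median was 10.4% at 0 h and 11.0% at 12 h, so the direction of the per-cell value turned when the 12 members with these markers were left out, and the list median was then -0.16.

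Resident macrophage, interferon and Fc receptor genes were mostly lower at 12 h in the pooled macrophages. The 12 h sums include 9 of 51 members with 20 or more tubule or endothelial marker UMIs, against 3 of 85 at 0 h. They also include the members with 5 or 6 C1q UMIs and no Csf1r. Values without these members are not given for the genes of this paragraph. Of 13 resident genes measured 2 were higher (median -0.55), among them Maf at -1.10 (-1.74 to -0.52), Mrc1 at -1.09 (-1.85 to -0.40) and Adgre1 at -0.64 (-1.06 to -0.24), while the tetraspanin gene Cd63 was at 0.64 (0.29 to 0.99). In male-called cells alone this median was 0.18. Of 18 interferon genes measured 3 were higher (median -0.58), with the membrane protein gene Ifitm3 at 1023, 1028, 1112 and 489 CPM (-1.06, -1.34 to -0.80, at 12 h) and Ifi204 at -1.33 (-2.07 to -0.68). Of 11 complement and Fc receptor genes 2 were higher (median -0.55). Fcgr2b, the inhibitory Fc receptor, was at -1.01 (-1.51 to -0.54), and the C5a receptor gene C5ar1 at -1.27 (-1.88 to -0.73). By contrast, C3 had 8, 37, 0 and 25 UMIs and was above 0 h at 1 h (3.40, 2.34 to 4.78) and 12 h (1.80, 0.66 to 3.22). At 1 h C3 lay in 4 cells, and 20 of its 37 UMIs were in the cell with the Lyz1 UMIs. Cxcl9 thus differed from the interferon list at 12 h. Csf1r was at -0.59 (-0.92 to -0.27) and the transcription factor gene Cebpb at -1.09 (-1.82 to -0.43).

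Cell cycle transcripts were lower in the pooled macrophages of the treated libraries, while the median share per cell was not. Mki67, a marker of cycling cells, had 39 UMIs in 7 of 85 cells at 0 h, 3 in 2 of 31 at 1 h, 0 at 4 h and 6 in 4 of 51 at 12 h. Top2a, the topoisomerase that untangles replicated DNA, had 60 UMIs in 9 cells, 2 in 1 cell, 0, and 6 in 2 cells. Cdk1, the mitotic kinase, had 38 UMIs in 7 cells, 0, 0 and 4 in 2 cells. It was at least 5.29-fold lower at 1 h, a bound that does not cover the spread between cells. Of 7 cell cycle genes measured, 1 was higher at 1 h (median -0.97) and 0 at 12 h (median -1.15). Per cell, the median share of cell cycle UMIs was 0.0232%, 0.0268%, 0.0453% and 0.0305% at 0, 1, 4 and 12 h, and 7 of 85, 2 of 31, 0 of 6 and 3 of 51 cells were above 0.3%, a limit chosen after the values were seen. The highest cell was at 1.11% at 0 h, 0.491% at 1 h and 0.490% at 12 h, so the pooled difference lay in the level of a few high cells.

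The 4 h library held 6 macrophages, and its sums describe those cells. They had 18 to 88 C1q UMIs, no Slc34a1 UMI and no member with 20 or more tubule or endothelial marker UMIs. Among 911 genes with at least 50 UMIs over both libraries, 82 (9.00%) were 2-fold or more higher than at 0 h and 103 (11.3%) lower, with a median log2 ratio over these genes of 0.04. With the highest cell of each gene left out, 10 were higher and 351 lower. Genes detected in all 6 cells included Rrbp1, a ribosome-binding protein of the endoplasmic reticulum (21 UMIs, log2 ratio 1.61, 0.85 to 2.25), the adhesion receptor gene Cd48 (17 UMIs, 1.54, 0.68 to 2.23, against -0.64 in other barcodes) and the metalloproteinase inhibitor gene Timp2 (12 UMIs, 1.31, 0.26 to 2.12). Lgals3, which encodes galectin 3, had 31 UMIs at 4 h, but 30 of them were in 1 cell, and without that cell the ratio of 1.70 (1.08 to 2.23) became -2.44. At 1 h Lgals3 was spread over 24 of 31 cells, with 210 UMIs against 213 in 53 of 85 cells at 0 h (1.24, 0.96 to 1.52). Mmp12, macrophage elastase, had 10 UMIs in 2 cells at 4 h (1.35, 0.18 to 2.23).

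Several genes present at 0 h were not detected in the 6 cells at 4 h. Stmn1, a microtubule regulator of dividing cells, had 140 UMIs in 17 of 85 cells at 0 h, 47 of them in 1 cell. It had none at 4 h (at least 2.12-fold lower). Vim, the filament protein vimentin, had 115, 96, 0 and 156 UMIs at 0, 1, 4 and 12 h (at least 1.75-fold lower at 4 h). These bounds do not cover the spread between cells, and whether 6 cells of the 0 h library would hold such genes was not tested. Hmgb2, a chromatin protein, had 260 UMIs in 42 cells at 0 h and 1 at 4 h (-2.98, -8.87 to -1.07). Cxcl9 and Ccl5 were also at 0 at 4 h, where a count of 0 allows up to 175.6 CPM, above the 0 h level of both, so no direction can be read. Class II transcripts were as high as elsewhere, with H2-Ab1 at 16040, 16840, 25410 and 12530 CPM over the 4 libraries.

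**Figure D5:**
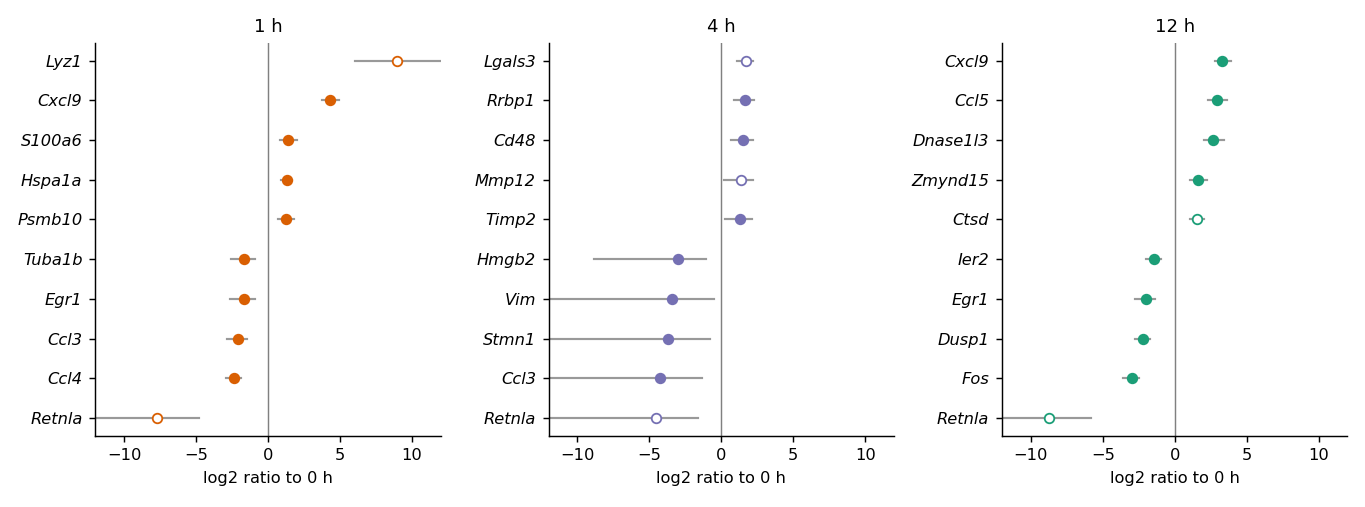
Log2 ratio to 0 h, with exact 95% counting intervals, of the macrophage genes furthest above and below 0 h at 1 h, 4 h and 12 h. Open circles mark genes with over 50% of the higher library's UMIs in 1 cell, and intervals without a bound run to the axis edge. Fos (-2.99) and Dusp1 (-2.18) at 12 h and Ccl4 (-2.36) at 1 h are drawn filled, Retnla and Lyz1 open.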

How the data were processed

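Droplet-based 3′ single-cell libraries of digested kidneys were analysed, 1 per time point. The matrices deposited by the authors give the raw UMI count of each gene in each barcode. The submitters' processing notes name Cell Ranger 3.1.0, STAR, Seurat and mm10, and per the file headers the matrices hold whole-number counts with Ensembl identifiers and symbols. Of 31053 identifiers, 30934 (99.6%) were found in GENCODE M21, from which gene coordinates come, and 71 symbols shared by several identifiers were kept apart by identifier. No column of the files lacked a sample.

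Macrophage UMIs were summed per library and gene and divided by the macrophage total to give CPM. Log2 ratios to the 0 h library were computed with 0.5 added to each count, with conditional binomial intervals. Shares carry Clopper-Pearson and levels Poisson intervals, all at 95%. PCR duplicates are removed by UMIs, but cells of 1 library are not replicates, so no test was run, and nothing says how many mice were pooled. A count of 0 was given a floor of 3 counts per library, and fold bounds from this floor do not cover the spread between cells. Genes needed 50 UMIs over both libraries to be counted as 2-fold higher or lower, and 20 to enter a list. Genes were named if they were among the 5 highest or 5 lowest ratios at each time with at least 100 UMIs, a 2-fold difference and a level in the higher library at or above that of all other barcodes. Mitochondrial, ribosomal, haemoglobin, immunoglobulin, sex-linked, unnamed and rule genes were left out. The 20 genes most enriched in macrophages at 0 h and members of gene lists were also named. Cells described one by one, including those at the edge of the rule, were chosen after their values were seen. The members and the gene lists were chosen with earlier results of these data known. For shares of cells with a UMI, each cell was thinned to 1000 UMIs. No doublets were removed, and removing those marked by Scrublet was an alternative. Alternatives also covered the C1q minimum, the mitochondrial limit, Slc34a1, cells of 1 sex, equal weight per cell, free RNA, size factors and the gene minimum. Promoters are from RefSeq GRCm38.p6. The calculations were tested on simulated data and used Python 3.11.15, numpy 2.4.6, scipy 1.17.1, pandas 2.3.3, scanpy 1.11.5 and matplotlib 3.10.9.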

Additional observations from a re-analysis of the deposited data

Results flagged for a closer look

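Among named genes, each at the time for which it was named, 8 comparisons gave opposite directions in groups of cells set side by side. None of these differences was tested, since each time is 1 library. In female-called against male-called macrophages, Cxcl9 had a log2 ratio to 0 h of 7.22 against -3.10 at 1 h and of 7.82 against -4.87 at 12 h. S100a6 at 1 h was at 1.22 in female-called and -3.05 in male-called cells. Between macrophages and all other barcodes of the same libraries, Egr1 at 1 h was at -1.66 against 2.28. At 4 h, with 6 macrophages, Cd48 was at 1.54 against -0.64, Mmp12 at 1.35 against -2.39, Timp2 at 1.31 against -0.29 and Stmn1 at -3.68 against 0.25. Where 1 of the counts was 0, the ratio rests on the 0.5 added to each sum and only a bound can be read. With a floor of 3 counts, Cxcl9 in female-called cells, at 0 UMIs at 0 h, was at least 24.6-fold higher at 1 h and 37.6-fold at 12 h. In male-called cells, at 0 UMIs at the later time, Cxcl9 was at least 1.41-fold lower at 1 h and 4.78-fold at 12 h, and S100a6 at least 1.36-fold lower at 1 h. Stmn1, at 0 UMIs at 4 h, was at least 2.12-fold lower. None of these bounds covers the spread between cells.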

How the results depend on the processing

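No paired analysis was possible because each time point is 1 library, and for the same reason no replicate could be left out. Leaving out members with 20 or more tubule or endothelial UMIs, and leaving out the highest cell of each gene, were chosen after seeing the data. Female-called and male-called cells alone were not run at 4 h, where they numbered 3 and 1. The share of macrophages was 0.642%, 0.201% and 0.328% at 0, 1 and 12 h with no Slc34a1 UMI allowed, and 1.25%, 0.517% and 0.680% of a smaller denominator with a 25% mitochondrial limit. The other 18 of 24 shares stayed within their intervals.

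Genes 2-fold higher at 1 h numbered 12 in female-called cells, 18 in male-called cells, 22 with equal weight per cell, 18 without the highest cell, 153 with a minimum of 20 UMIs and 11 with 100. Those lower at 1 h numbered 59, 174 and 15 under the last 3 settings. At 4 h, 38 were higher and 66 lower with no Slc34a1 UMI, 10 and 351 without the highest cell, 449 and 464 with 20 UMIs, and 17 and 38 with 100. At 12 h, 22 were higher and 29 lower with no Slc34a1 UMI, 19 and 24 in female-called cells, 225 and 214 with 20 UMIs, and 21 and 24 with 100. At 12 h, 30 were higher without Scrublet-marked barcodes and 33 were lower in male-called cells. The other 53 of 80 counts stayed within 1.5 times.

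Resident macrophage medians were 0.81 at 1 h and 0.18 at 12 h in male-called cells, of opposite sign to the whole at both times. MHC class II medians at 12 h were -0.081 with no Slc34a1 UMI and -0.070 in female-called cells. Cytokine medians at 12 h were -0.91 in female-called and 0.59 in male-called cells. Immediate early medians were 0.85 at 1 h in female-called cells, and at 12 h -0.26 with no Slc34a1 UMI and -0.40 in female-called cells. The heat shock median at 12 h was 0.61 in male-called cells and the interferon median at 1 h was -0.82 in female-called cells. Of named genes, ratios turned in male-called cells for Cxcl9 (-3.10 at 1 h, -4.87 at 12 h), S100a6 (-3.05 at 1 h) and Psmb10 (-0.24 at 1 h), in female-called cells for Egr1 (1.19 at 1 h) and Ctsd (-0.52 at 12 h), and without the highest cell for Lgals3 (-2.44 at 4 h) and Mmp12 (-0.40 at 4 h). The male-called Cxcl9 and S100a6 values rest on 0 UMIs at the later time and on the added 0.5, so they are no measured sizes. A further 31 of 265 named ratios kept their direction but moved by more than their counting intervals, and 226 moved by less, as did the other 133 of 144 medians of these lists. The causes were not tested. Depth limits the 4 h values most, where 1 UMI is worth 58.5 CPM, and no interval covers differences between mice.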

Other observations

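Lysosomal genes, which encode the hydrolases that digest what macrophages engulf, were higher for 12 of 16 measured at 1 h (median log2 ratio 0.16), 13 of 16 at 4 h (0.55) and 9 of 16 at 12 h (0.04), beside medians over all genes of 0.08, 0.18 and 0.03. Iron and haem handling genes, with which macrophages recycle iron, had medians of -0.27 at 1 h, 0.17 at 4 h and -0.52 at 12 h, where 5 of 9 were lower. Genes that glucocorticoids raise had medians of -0.20, -0.24 and -0.58, with 9 of 10 lower at 12 h and 4 of them 2-fold or more, beside a median of -0.59 in all other barcodes. Fos is also on this list. Tsc22d3, a classical glucocorticoid target, had 71 UMIs in 40 cells at 0 h and 14 in 10 cells at 12 h (-2.09, -3.07 to -1.29). Genes of the macrophage growth factor axis had medians of 0.04, 0.22 and -0.39. Of the TNF ligand and receptor genes, 4 of 7 were higher at 12 h (median 0.12), and Tnf itself had 35 UMIs in 24 of the 173 cells. No clock gene and no vitamin D axis gene reached the 20 UMIs needed for the lists.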
